A study of Rattus norvegicus with 6 samples.

Results

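The 12 array probes described here were the probe for rno-miR-378 and 11 custom probes, made for candidate rat sequences that differed from miR-378 by 2 to 4 bases. They were taken from the 5560 miRNA probes of the array, of which 100 were custom. The list holds probes close to miR-378 in sequence and was made with earlier results of these data known. It leaves out 7 further custom probes with 4 differences. The arrays measured kidney RNA of 6 male rats, Big Blue Transgenic on a Fisher 344 background, with 1 array per animal, all aged 6 weeks at the start. The Big Blue transgene is a bacterial reporter used to count mutations, and it was carried by treated and untreated rats alike. Control rats 13, 14 and 15 were untreated. Rats 19, 20 and 21 were given aristolochic acid (AA), a nephrotoxin and carcinogen of Aristolochia plants, as the sodium salt by gavage at 10.0 mg/kg, 5 times per week for 12 weeks, and were killed 1 day after the last dose. The candidates came from sequencing of kidney small RNA that included these 6 animals.

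A miRNA finds its target mRNAs mainly through its seed, a short stretch near its 5′ end, and a changed seed changes the set of targets. miR-378 is made from an intron of Ppargc1b, which encodes PGC-1β, a coactivator of mitochondrial and fatty acid metabolism genes, and it has been studied for its part in energy metabolism. A hybridisation probe, however, reads the whole length of an RNA, so that RNAs of nearly the same sequence can bind to the same spot.

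The target sequences are printed because the number and place of their differences from miR-378 defined the comparison. In rno-miR-378 the capitals mark the seed, bases 2 to 8 from the 5′ end. In the candidates they mark bases that were substituted or added relative to miR-378.
rno-miR-378: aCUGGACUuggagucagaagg
Candidate_546: UGuggacuuggagucagaagg
Candidate_220: auggaGuuggagucagaaggC
Candidate_553: aAugAacuuggagucagaag
Candidate_106: UcuggCcuuggagucagaag
Candidate_24: GcuggacuuggaUucagaag
Candidate_172: aAuggaAuuggagAcagaag
Candidate_171: cuggCcuuggagucagCagg
Candidate_557: acuggUcuuggGgucagaag
Candidate_226: acuggUcuuggaUucagaag
Candidate_69: acuUgacuuggagucaUaagg
Candidate_10: UcuggUcuuggagucaUaagg

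Of the 12 targets, the miR-378 target matched a mature rat miRNA in RefSeq, rno-miR-378a-3p, on the minus strand of GRCr8 at chr18:57128925-57128945, inside Ppargc1b. Candidate_546 carried the sequence that the study named rno-miR-3600. Positions below are counted from 1 at the 5′ end of miR-378, with 1 to 7 called the 5′ end, 8 to 14 the middle and 15 to 21 the 3′ end. All 11 candidates had at least 1 difference in the 5′ end. Candidate_546, with A1U and C2G, had its differences there alone, and it kept an unbroken run of 19 bases of miR-378. In 6 candidates differences lay at the 5′ and 3′ ends, and in 4 they lay at both ends and in the middle. The seed of miR-378, CUGGACU, was kept by Candidate_24 alone. Candidate_557, Candidate_226 and Candidate_10 shared the seed CUGGUCU with each other.

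Signal is given below as spot intensity minus the median intensity of empty spots on that array. AA 20 stood apart. The mean signal of all probes was 149 on AA 20, against 263 to 484 on the other 5 arrays, and 863 probes were detected there, against 1074 to 1679. A probe was called detected when its signal passed 3 robust SDs of the empty spots. This margin was 32.2 on control 13 and from 9.2 (AA 19) to 16.3 (AA 20) on the other 5 arrays. The kidney miRNAs miR-192, miR-194, miR-10a-5p, miR-30a and miR-200b were detected on 6 of 6 arrays, miR-204 on 2. Of the markers of muscle, brain and blood, miR-1, miR-124, miR-9, miR-144, miR-142-3p and miR-142-5p were detected on 0 arrays, miR-133a and miR-133b on 1 each, miR-223 on 2, and miR-128 and miR-451 on 5 each. The liver marker miR-122 and the muscle marker miR-206 were detected on 6 of 6 arrays, with signals from 18.9 to 2026 and from 98.0 to 1038. Their part in the results was not tested.

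Signal well above background was found for miR-378, for Candidate_546 and, on every array but AA 20, for Candidate_220. miR-378 read 1276, 462 and 491.5 in control 13, 14 and 15 and 1067, 58.9 and 639 in AA 19, 20 and 21. It was detected on all 6 arrays and ranked 244th to 360th from the top of the 5560 probes. Its lowest value was on AA 20, and the groups overlapped.

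Candidate_546, with its 2 substitutions at the first 2 bases, read 789, 272 and 180.5 in the control rats and 476, 34.9 and 221 in the AA rats. Like miR-378 it was highest on control 13, lowest on AA 20 and detected on all 6 arrays. As a percent of the miR-378 signal of the same array it was 61.8, 58.8 and 36.7% in the control rats and 44.6, 59.2 and 34.5% in the AA rats, 49.3% ± 12.2 (SD, n = 6). Its signal differed 22.6-fold between the highest and the lowest array, while its percent of miR-378 differed 1.79-fold. In the authors' deposited normalized values it ranged from 133 to 316. It passed an intensity of 32 on 6 of 6 arrays, which was one of the criteria by which the study kept it, so this count follows from that choice.

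Candidate_220, which lacks the base at position 2, carries C7G and has 1 base added after position 21, was the brightest candidate on every array but AA 20. It read 1629, 593 and 277.5 in the control rats and 844, 14.5 and 405 in the AA rats, which left it undetected on AA 20. Its percent of miR-378 was 128, 128 and 56.5% in the control rats and 79.1, 24.7 and 63.3% in the AA rats. It was thus brighter than miR-378 on control 13 and 14 and dimmer on the other 4 arrays, and over the 5 arrays that detected it the percent differed 2.27-fold, against 1.79-fold for Candidate_546. The mean was 79.9% ± 41.2 (SD, n = 6), and 91.0% ± 34.8 without AA 20.

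Candidate_553, Candidate_106 and Candidate_24 each had 2 substitutions and a 3′ end shorter by 1 base, and were detected on 5 of 6 arrays, all but AA 20. Candidate_553 (C2A, G5A) read 169, 45.7 and 31.9 in the control rats and 103, 6.76 and 52.7 in the AA rats. This was 9.83% ± 2.37 of miR-378 (SD, n = 6), between 6.49 and 13.2% on every array.

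Candidate_106 (A1U, A6C) read 113, 29.9 and 20.5 in the control rats and 58.7, 9.25 and 32.5 in the AA rats. Its percent of miR-378 lay between 4.17 and 8.84% on 5 arrays and was 15.7% on AA 20, where it was not detected. Candidate_24 (A1G, G13U), the one candidate with the seed of miR-378, read 73.0, 28.1 and 18.7 in the control rats and 59.2, 3.53 and 19.7 in the AA rats, 5.04% ± 1.27 of miR-378 (SD, n = 6). Candidate_546, with a changed seed, read higher on every array.

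The remaining 6 candidates were near background. Candidate_172, with 3 substitutions (C2A, C7A, U14A), was detected on 4 arrays, at signals from 15.0 to 45.1. Candidate_171 (A6C, A18C, first base missing) was detected on 3. Its signals over all 6 arrays ran from 8.98 to 31.0, and the highest, on control 13, was not detected. On AA 20 miR-378 itself was low. There Candidate_172 and Candidate_171 amounted to 25.0 and 15.3% of it, against at most 4.26 and 3.16% on the other 5 arrays. Their means fell from 6.56 to 2.86% and from 4.50 to 2.35% when AA 20 was left out.

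Candidate_557 (A6U, A12G), Candidate_226 (A6U, G13U) and Candidate_10 (A1U, A6U, G17U) were detected on 0 of 6 arrays. Their signals ran from 2.07 to 13.6, from -7.88 to 4.35 and from -2.69 to 2.65, where a negative value is below the empty spots. Candidate_69 (G4U, G17U) was detected on AA 21 alone, at a mean signal of 26.6. That value came from 1 of its 3 spots, at 75.9, while the other 2 spots read -0.76 and 4.62. Candidate_69 and Candidate_546 both differed from miR-378 at 2 positions, and read 1.78 and 49.3% of it on average.

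The number of differences hardly varied, since 8 of the 11 candidates had 3, so it could hardly order them. The longest run of bases shared with miR-378 varied more, and among the 11 it tended to be longer in brighter candidates. The 2 candidates with 2 differences spanned 1.78 to 49.3% of miR-378, the 8 with 3 differences spanned 0.869 to 79.9% with a median of 4.77%, and the 1 with 4 differences was at 6.56%. By place, the 1 candidate changed at the 5′ end alone was at 49.3%, the 6 changed at both ends spanned 0.869 to 79.9% with a median of 6.06%, and the 4 also changed in the middle spanned 1.17 to 6.56% with a median of 3.41%. Across the 11 candidates Spearman's rho with the mean percent was 0.71 for the longest shared run, which was 19 bases in Candidate_546, 15 in Candidate_553, 14 in Candidate_220 and Candidate_106 and at most 12 in the others. For the number of differences rho was -0.064, a value that says little because 8 of the 11 had 3. The dim candidates' means were raised by AA 20. Without it, the median was 3.60% for the 8 candidates with 3 differences, 4.18% for the 6 changed at both ends and 1.79% for the 4 also changed in the middle, which then spanned 0.268 to 4.84%, and rho was 0.75 and -0.12. These are descriptions, since all 11 percents share the same miR-378 values as denominator and brightness also depends on the probe. Probes outside the 11 went both ways. cfa-miR-378 and mmu-miR-378b, with shared runs of 21 and 19 bases, read 293 and 59.0% of miR-378 on average. hsa-miR-378c, with a run of 20, read 6.40%. Candidate_579 and Candidate_587, custom probes with runs of 14, read 1.66 and 1.40%.

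Standard probes of the same array for miR-378 of other species gave a wider set of changes, and 7 of the 21 further probes within 4 differences of miR-378 or named miR-378 or miR-422 were detected on all 6 arrays. The brightest of those that differed by 1 base was cfa-miR-378, which has 1 base added after position 21. It read 288, 330 and 345% of the rat probe in the control rats and 253, 256 and 285% in the AA rats. Candidate_220 has an added base in the same place, and it read 27.1% ± 13.4 (SD, n = 6) of cfa-miR-378, from 9.64 to 44.3%.

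hsa-miR-378d (G20A, last base missing) was at 32.6% ± 4.18, hsa-miR-378e (A18G, last 2 bases missing) at 37.0% ± 8.79 and mmu-miR-378b (first base missing, G21A) at 59.0% ± 8.16 of miR-378 (SD, n = 6 each). With a substitution inside the 5′ end, hsa-miR-378g (A6G, last base missing) was at 20.2% ± 6.93.

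A pair of bright probes followed no such order. hsa-miR-378b (U14G, last 2 bases missing) read 6108, 7592 and 92.9 in the control rats and 3777, 632.5 and 306 in the AA rats, from 18.9 to 1643% of miR-378. Candidate_223, a custom probe with 4 differences that is outside the list of 11, contains the changed first 2 bases of Candidate_546 and is shown for that reason.
Candidate_223: UGuggacuuggagucagGaggC
It differs from Candidate_546 by A18G and 1 base added after position 21. It read 44710, 29887 and 10567 in the control rats and 35206, 18456 and 17719 in the AA rats, at least 2150% of miR-378 on every array. On AA 20, where miR-378 and Candidate_546 had their lowest values, Candidate_223 was above its values on control 15 and AA 21, and its highest and lowest arrays differed 4.23-fold, against 21.7-fold for miR-378. The 6 other custom probes with 4 differences that are outside the list of 11 were detected on 3 arrays at most.

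The passenger strand of the same hairpin, rno-miR-378*, is the arm that is usually degraded. Its probe, which the array lists as hsa-miR-378* and gives for the rat too, read 139, 48.5 and 103 in the control rats and 129, 10.97 and 58.0 in the AA rats, 13.7% ± 4.87 of miR-378 (SD, n = 6). It was lowest on AA 20, where it was not detected, and the groups overlapped. Its signal differed 12.7-fold between arrays and its percent of miR-378 2.31-fold, against 22.6-fold and 1.79-fold for Candidate_546. It shares at most 4 bases in a row with miR-378, so a percent steadier than the signal was not particular to near-identical probes.

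AA was compared with control to ask whether the toxin moved miR-378 or any candidate, and no such change was found. The test was limma on normalized log2 intensity over the 1132 probes that reached 32 on at least 1 array. It included miR-378, Candidate_546, Candidate_220, Candidate_553, Candidate_106 and Candidate_24, the last of which reached 32 on AA 19 alone. By limma, 0 of these 6 passed an adjusted p of 0.05, beside 0.177% of all tested probes, and 0 of 6 had an unadjusted p under 0.05, beside 4.95%. In 0 of 6 did the groups not overlap, beside 9.98% of the tested probes.

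On the log2 scale, miR-378 was 9.20 ± 0.36 in the control rats and 9.07 ± 0.58 in the AA rats (SD, n = 3 each). The difference, AA minus control, was -0.13 (SE 0.37, 95% interval -1.01 to 0.74, limma adjusted p = 0.936). This interval does not show that the groups were alike. In bulk tissue, fewer cells of a type and less RNA per cell cannot be told apart. The labels do not name a batch, and 3 animals per group set the precision.

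For Candidate_546 the log2 levels were 8.59, 8.28 and 8.34 in the control rats and 7.95, 7.81 and 8.50 in the AA rats, a difference of -0.31 (SE 0.29, 95% interval -0.99 to 0.36, limma adjusted p = 0.884). AA 19 and 20 were below every control rat and AA 21 was not. For Candidate_220 the log2 levels were 9.51, 9.18 and 8.89 in the control rats and 8.51, 6.53 and 9.16 in the AA rats, a difference of -1.12 (SE 0.65, 95% interval -2.64 to 0.39, limma adjusted p = 0.884). AA 20 was far below the other 5 arrays, and without it the difference was -0.35.

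Candidate_553, Candidate_24 and Candidate_106 had differences of -0.11, -0.11 and -0.062, each with an interval that spanned 0 and limma adjusted p from 0.933 to 0.944. All 6 tested members were lower in AA on average, with a median of -0.12, but 3 of them (Candidate_553, Candidate_106 and Candidate_24) were higher under median scaling of the arrays, and 4 were higher without AA 20. Of all tested probes, 54.2% were lower in AA and the median was -0.053. The 6 members that were too dim to be tested had differences between -0.065 and 0.15 on this scale, on which low signals are compressed.

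The percent of miR-378 gave a comparison within each array. Of the 11 candidates, 0 had groups that did not overlap, beside 6.19% of all tested probes treated in the same way. Only 5 of the 11 candidates were among those tested. The shares are thus of unlike sets, and 0 of 11 is not read as a result. Candidate_546 was 52.4% ± 13.7 of miR-378 in the control rats and 46.1% ± 12.4 in the AA rats, -6.32 percentage points (exact permutation test, two-sided p = 0.6). Candidate_220 was 104% ± 41.3 and 55.7% ± 28.0, -48.5 percentage points (exact permutation test, two-sided p = 0.3). The p of the other 9 candidates was between 0.3 and 1.0 by the same exact test, and each adjusted p over the 11 was 1.0. With 3 rats against 3, this test cannot give less than 0.1.

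Among the related probes, 11 of 21 were tested. limma called 0 of them, and 9 of 11 were lower in AA, with a median of -0.15. Of all tested probes, 54.2% were lower, with a median of -0.053. The 11 have targets close in sequence and are not independent of each other. The 1 probe with an unadjusted p under 0.05 was hsa-miR-422a, named here after its values were seen, at -1.21 (SE 0.47, limma adjusted p = 0.884). Its signals were 582, 327 and 56.6 in the control rats and 95.6, 10.2 and 53.8 in the AA rats, so that control 15 fell within the AA range. Candidate_223 differed by 0.039 (SE 0.47, limma adjusted p = 0.969), and rno-miR-378* by -0.29 (SE 0.39, limma adjusted p = 0.884).

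As a percent of miR-378, 2 of the 21 related probes had groups that did not overlap. cfa-miR-378 was at 321% ± 29.6 in the control rats and 265% ± 18.1 in the AA rats, and mmu-miR-378b at 65.4% ± 5.76 and 52.6% ± 2.86 (SD, n = 3 each). Both were lower in AA in 3 of 3 rats. Of all tested probes, 6.19% had groups that did not overlap in either direction, and 2.03% were lower in AA. Only 11 of the 21 related probes were among those tested. The share among related probes has the same miR-378 denominator in every case, and no test was made of it.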

How the data were processed

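Kidney RNA from 6 rats was tailed, tagged, stained with Cy3 and hybridised to 1-colour arrays. The deposited scanner files gave median spot intensity, with no background correction. A second deposited table held normalized intensity, made by the authors with background subtraction and LOWESS normalization, and their methods filter at 32. Standard probes had 2 spots and custom probes 3. Groups and animal numbers came from the labels. The numbers are not shared between groups, so no animals were paired.

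For levels, the median of the empty spots was subtracted, spots were averaged and values were divided by that of miR-378 on the same array. For AA against control, all spots were corrected with normexp (offset 50), quantile-normalized and averaged, and fitted with limma 3.58.1 in R 4.3.3, with Benjamini-Hochberg adjustment over 1132 probes. Exact permutation tests used scipy 1.17.1. The fit was tested on simulated data. Differences were placed by global alignment with unit costs. Named were the 12 members, related probes detected on all 6 arrays and the passenger strand. hsa-miR-422a, hsa-miR-378c, hsa-miR-378f, hsa-miR-378i, Candidate_579 and Candidate_587 were named in addition, after their values were seen. Members and lists were chosen with earlier results of these data known.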

Additional observations from a re-analysis of the deposited data

How the results depend on the processing

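No call among the 6 tested members or the related probes arose under any alternative. Over all 1132 tested probes limma called 2, against 0 with cyclic loess, median scaling or no normalization (70, 30 and 5 at an unadjusted p under 0.05), 44 with array quality weights, and 0 to 3 with 1 array left out, 3 of them without AA 20 and 0 without any other array. The median log2 difference of all tested probes was -0.32 without normalization and -0.16 with plain subtraction.

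The differences of 4 members turned from lower to higher in AA. With array quality weights they were 0.49 for miR-378, 0.20 for Candidate_553 and 0.12 for Candidate_106. With median scaling they were 0.12 for Candidate_553, 0.17 for Candidate_106 and 0.19 for Candidate_24. With 1 array left out they ranged from -0.47 to 0.067 for miR-378 (0.049 without control 15, highest without AA 20), from -0.33 to 0.23 for Candidate_553 and from -0.21 to 0.15 for Candidate_106 (0.0081 and 0.027 without control 13, highest without AA 20), and from -0.25 to 0.097 for Candidate_24 (highest without AA 20). Over all alternatives the adjusted p of the 6 members, by limma or in 1 alternative by the authors' t-test, lay between 0.341 and 1.00. Candidate_546 (-0.72 to -0.033) and Candidate_220 (-2.07 to -0.35) never turned.

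The median candidate stood at 5.04% of miR-378, at 19.6% both without subtraction and with normexp (offset 50), and at 2.86% without AA 20. Candidates whose groups did not overlap numbered 1 in the deposited values, Candidate_557. The same 1 was found in the blocks that hold miR-378, a setting chosen after seeing the data. With 1 array left out there were 0 to 2. These were Candidate_220 without control 15, Candidate_226 and Candidate_69 without AA 19, and Candidate_171 and Candidate_557 without AA 20. Candidate_557 and Candidate_226 were detected on 0 arrays and Candidate_69 on AA 21 alone. Groups of fewer arrays separate more easily, and no share over all tested probes was set beside these counts. They are not read as a result about the candidates, and their cause was not tested. At 5 robust SDs Candidate_24 was detected on 3 arrays and Candidate_172 and Candidate_171 on 1 each. A scan or slide block was not run, because no source names one.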

Other observations

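hsa-miR-378b and Candidate_223 both have a target that holds the letters GGAGGC, searched in the sense of the RNA, and no member does. cfa-miR-378, brighter than the rat probe on 6 of 6 arrays, does not hold them. These letters occur in 64 of the 5560 targets on the array (1.15%). Of those 64 probes, 21 (32.8%) were detected on all 6 arrays, against 710 of all 5560 (12.8%), and their median signal over the 6 arrays was 14.35, against 6.33 for all probes. The letters were chosen after the values of both probes were seen, and no test was made. hsa-miR-378f, which has U14C where hsa-miR-378b has U14G and 1 missing base in place of 2, read 6.84% ± 4.69 of miR-378 (SD, n = 6), and hsa-miR-378i, with the single change U9A, read 8.85% ± 3.33. These probes were named after their values were seen.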
